A study of Drosophila melanogaster with 5 samples.

Results

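The genes described here encode the translation initiation and elongation factors of Drosophila melanogaster: every gene whose current symbol starts with eIF or eEF, together with pAbp (CG5119), which encodes the cytoplasmic poly(A)-binding protein. The rule used symbols alone and no measured value, and it took in 53 genes. Of these, 52 were found by their locus tag among the 13265 genes listed in the 5 libraries. The remaining gene, eIF2gamma (CG43665), had no row of its own.

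Initiation factors bring the small ribosomal subunit and the initiator tRNA to a messenger RNA. eIF4E binds the cap, the scaffold eIF4G joins it to the helicase eIF4A and to the poly(A)-binding protein, eIF3 bridges to the ribosome, and eIF2 carries the initiator tRNA while eIF1, eIF1A and eIF5 watch over the choice of the start codon. Elongation factors then deliver each aminoacyl-tRNA (the eEF1 complex) and move the ribosome along by a codon (eEF2). Fly ovaries load large stores of maternal messenger RNA and ribosomes into the egg, and several fly initiation factors have a duplicate gene that is used mainly in the male germ line.

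The series was made to examine transcripts that start from transposable elements, and it holds 5 libraries of polyadenylated RNA, each of them the only library of its group. Ovaries of the line iso1a (20 ovaries, 5 µg of total RNA) were used for both CAGE libraries, which record the strand and the 5′ ends of capped transcripts: one was pyrosequenced (titled Iso1a-454-5′) and carries normalization "yes", the other was sequenced on Solexa (titled Iso1a-Solexa-5′) and carries normalization "no". Whole bodies of 10 males under 24 h old and 10 females of 0 to 3 days were used for each of the other libraries, random-primed Illumina libraries without strand, from the lines iso1a (normalization "yes"), Rev (normalization "no") and IR6 (normalization "no"). The labels do not say what normalization means, what alleles separate the lines, or whether the platforms shared an RNA preparation. With 1 library per group there was no replicate check, so no p-value is given, and each interval below covers counting error only.

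The total of gene counts was 109980 in pyrosequenced ovaries, 2813522 in Solexa ovaries, 4379746 in the iso1a body, 11685814 in Rev and 9633168 in IR6. Levels are given as counts per 1000000 gene counts (CPM), with the largest transcript count as the value of a gene. A count of 3, used as the floor, stood for 27.3 CPM in the pyrosequenced library, 1.07 in the Solexa library, 0.685 in the iso1a body, 0.257 in Rev and 0.311 in IR6, so the pyrosequenced library could not resolve most of the lower factors. Summed levels of 10 ovary marker genes were 89143 CPM in the pyrosequenced library and 79703 CPM in the Solexa library. Whole bodies had 1468 to 18549 CPM. Not every marker followed the sum. Against Rev and IR6, 4 of the 10 were at least 4-fold higher in the Solexa ovary, and Cp38 and bcd were at least 4-fold lower. The marker osk had 102 CPM in the Solexa ovary, against 898 CPM in the iso1a body, 396 CPM in Rev and 220.2 CPM in IR6. Against the iso1a body, 6 of the 10 were at least 4-fold higher in both ovary libraries and 0 were lower. The 4 eye and nerve markers and the 3 fat body markers were at 0 in both ovary libraries. Of 9 testis markers 7 were at 0 in each ovary library, though not the same genes. The marker aly had 0 counts in the pyrosequenced library and 41 in the Solexa library, and Mst87F had 1 and 0. In the reference annotation (BDGP6), 24 of the 52 genes overlap another gene, and in the unstranded body libraries the reads of overlapping genes cannot be told apart.

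eIF2gamma, which encodes the subunit of eIF2 that binds GTP and the initiator tRNA, is listed only within a joint older locus (CG6476) that it shares with the histone methyltransferase gene Su(var)3-9. The largest transcript count of this joint locus was 41 in pyrosequenced ovaries, 741 in Solexa ovaries, 1337 in the iso1a body, 1637 in Rev and 1203 in IR6. These counts cannot be assigned to either gene and were left out of all results.

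All 52 genes had counts in each whole-body library, whereas 13 genes (25.0%) were at 0 in the pyrosequenced ovary library and 10 genes (19.2%) in the Solexa ovary library. Among all listed genes 61.7% were at 0 in the pyrosequenced library, 56.2% in the Solexa library and 3.38% to 6.14% in the bodies. The median level of the 52 genes was 45.5 CPM in the pyrosequenced ovary, 58.8 CPM in the Solexa ovary, 76.5 CPM in the iso1a body, 173 CPM in Rev and 166 CPM in IR6. Over all listed genes the median was 0 CPM in both ovary libraries, 25.8 CPM in the iso1a body, 18.7 CPM in Rev and 17.5 CPM in IR6.

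Together the 52 genes took 4.01% of gene counts in the pyrosequenced ovary library (exact 95% Clopper-Pearson interval 3.89 to 4.13%), and 4.16% in Solexa ovaries (4.14 to 4.18%). In whole bodies they took 1.51% in iso1a (1.498 to 1.521%), 2.45% in Rev (2.44 to 2.46%) and 2.43% in IR6 (2.42 to 2.44%). With the sum over the transcripts of a gene in place of the largest, the body shares lay closer, at 2.88% in iso1a, 3.27% in Rev and 3.54% in IR6. Elongation factors made the largest part of this share in the ovary, and in the iso1a body pAbp did. The 8 elongation factor genes held 79.7% of the factor counts in the pyrosequenced ovary and 74.1% in the Solexa ovary, against 24.4% in the iso1a body, 50.6% in Rev and 48.3% in IR6. pAbp alone held 28.9% of the factor counts in the iso1a body, against 7.96% in Rev and 12.1% in IR6, and 1.36% in the pyrosequenced ovary and 0.511% in the Solexa ovary. The 16 eIF3 genes took 0.122% of all gene counts in the iso1a body, against 0.486% in Rev and 0.514% in IR6. In these bulk samples fewer cells of a type and less RNA per cell cannot be told apart.

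**Figure D1:**
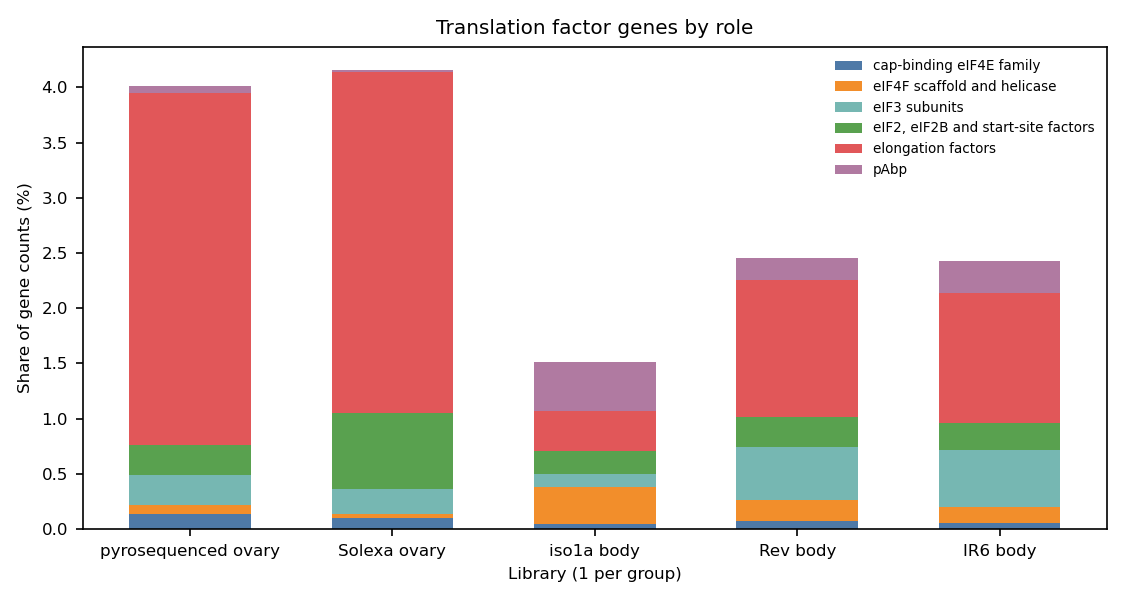
Share of gene counts (%, vertical axis) taken by 6 role groups of translation factor genes in each of the 5 libraries (1 bar per library, stacked by role). Elongation factors fill most of both ovary bars, at 3.19% of gene counts in the pyrosequenced library and 3.08% in the Solexa library, and the iso1a body has the shortest bar, at 1.51%, with the largest transcript count as the value of a gene.

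Per kilobase of transcript, which allows genes to be set against each other in the random-primed body libraries, eEF5 had the highest level of the factors in all 3 bodies. It stood at 1131 CPM per kb in iso1a, 3031 in Rev and 3039 in IR6. In iso1a it was followed by pAbp (1128 CPM per kb), eIF1 (923) and eEF1alpha1 (688), so that eEF5 and pAbp were close to level. The length used for pAbp, 3870 bp, is that of its longest reference transcript, and the order of eEF5 and pAbp in iso1a rests on it. In Rev the next were eEF1alpha1 (2169 CPM per kb), eEF2 (1547) and eIF3i (743), and in IR6 eEF1alpha1 (1948), eEF2 (1534) and eIF3h (875). The lower end was held by the duplicate genes: eIF3f2 was lowest in iso1a (1.74 CPM per kb), and eIF4E6 was lowest in Rev (1.14) and in IR6 (0.307). No such order is given for the ovaries, since CAGE counts ends and not length.

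Subunits of 1 complex did not have equal levels. The 13 eIF3 subunit genes, leaving aside 3 duplicates, spanned 15.5-fold per kb in iso1a (eIF3f1 at 16.3 to eIF3j at 253 CPM per kb), 16.3-fold in Rev (eIF3a at 45.5 to eIF3i at 743) and 15.3-fold in IR6 (eIF3a at 57.1 to eIF3h at 875). The 5 genes of eIF2B, which reloads eIF2 with GTP, lay closer together in Rev (a 1.67-fold range) and IR6 (2.15-fold) than in iso1a (6.61-fold, from eIF2Bdelta at 3.97 to eIF2Bepsilon at 26.2 CPM per kb). The iso1a value of eIF2Bdelta stands on 36 counts. All 5 eIF2B genes, and also eIF3h and eIF3i, overlap another gene, so their unstranded counts may include reads of those genes. Of 4 genes of the eEF1 complex, eEF1alpha1 had the most and the range was 4.75-fold in iso1a, 10.1-fold in Rev and 9.16-fold in IR6.

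Cap binding is the task of eIF4E1 (CG4035), the general cap-binding protein of the fly, and of a family of related genes. eIF4E1 had 1300.2 CPM in the pyrosequenced ovary, 951 CPM in the Solexa ovary, 211 CPM in the iso1a body, 497 CPM in Rev and 351 CPM in IR6. It was thus the main cap-binding gene by counts in every library, and its level was highest in the pyrosequenced ovary. eIF4EHP, a cap-binding protein that represses maternal messages, had 9.09, 29.9, 65.1, 72.2 and 63.2 CPM in the same order of libraries, and eIF4E3, which is needed in fly spermatogenesis, had 27.3, 53.0, 51.6, 24.5 and 32.4 CPM. The pyrosequenced values of eIF4EHP and eIF4E3 stand on 1 and 3 counts.

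The remaining cap-binding genes, eIF4E4, eIF4E5, eIF4E6 and eIF4E7, had 0 counts in the pyrosequenced ovary, and in the Solexa ovary only eIF4E6 had a count, of 1. eIF4E4 had 11.0 CPM in the iso1a body, 62.3 CPM in Rev and 100.1 CPM in IR6. eIF4E5 had 67.1 CPM in the iso1a body, 19.9 CPM in Rev and 24.3 CPM in IR6. The body libraries thus differ in which duplicate leads: eIF4E5 had more counts than eIF4E4 in iso1a, and fewer in Rev and IR6. eIF4E7 was nearly level, with 14.2 CPM in iso1a, 13.6 CPM in Rev and 16.9 CPM in IR6, and eIF4E6 had 10, 9 and 2 counts in the same libraries. For each of the genes with no count in the Solexa ovary, 0 counts allow a share of up to 0.112% of its counts and those of eIF4E1 together.

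Among the helicase and scaffold genes, eIF4A, the helicase that unwinds the 5′ leader, had 691 CPM in the pyrosequenced ovary, 157 CPM in the Solexa ovary, 302 CPM in the iso1a body, 776 CPM in Rev and 693 CPM in IR6. eIF4B, which stimulates that helicase, had 18.2 CPM in the pyrosequenced ovary (2 counts), 64.7 CPM in the Solexa ovary, 781 CPM in the iso1a body, 565 CPM in Rev and 268 CPM in IR6. The scaffold eIF4G1 had 136, 109, 450.0, 358 and 258 CPM in that order. eIF4B and eIF4G1 therefore had their highest level in the iso1a body, and eIF4A had it in Rev. eIF4G2, a second scaffold gene required for male meiosis in the fly, had no count in either ovary library but 206 CPM in the iso1a body, 132 CPM in Rev and 89.2 CPM in IR6.

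eIF4H1 (CG4429), whose mammalian counterpart eIF4H also aids the helicase, stood apart in the iso1a body. It had 27.3 CPM in the pyrosequenced ovary (3 counts), 32.7 CPM in the Solexa ovary, 1628 CPM in the iso1a body, 27.8 CPM in Rev and 33.4 CPM in IR6. The counts behind these levels were 7129 in the iso1a body against 325 in Rev and 322 in IR6, and its 3 transcripts had identical counts within every library. Its duplicate eIF4H2 ran the other way, with 11.4 CPM in the iso1a body, 43.7 CPM in Rev and 62.0 CPM in IR6, and 0 in both ovaries. As a result eIF4H2 held 0.696% of the counts of the pair in the iso1a body (interval 0.517 to 0.917%), against 61.1% in Rev (57.7 to 64.4%) and 65.0% in IR6 (61.8 to 68.0%). Neither gene overlaps another in the reference annotation.

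The eIF3 genes encode the largest initiation complex, which binds the small ribosomal subunit. The eIF3 gene with the most counts summed over the libraries, a sum that Rev and IR6 dominate, was eIF3h, with 318 CPM in the pyrosequenced ovary, 183 CPM in the Solexa ovary, 33.8 CPM in the iso1a body, 1096 CPM in Rev and 1309 CPM in IR6. eIF3i had 100.02, 307, 95.9, 874 and 990.3 CPM, and eIF3g1 had 164, 94.9, 28.3, 524 and 663 CPM in the same order. For these 3 genes Rev and IR6 lay far above the iso1a body, and the ovary libraries lay in between. eIF3j, a loosely held subunit, led in the iso1a body, with 345 CPM in iso1a, 100.2 CPM in Rev and 104 CPM in IR6. The leading eIF3 gene was eIF3b in the pyrosequenced ovary (518 CPM) and eIF3k in the Solexa ovary (692 CPM). The duplicates eIF3d2, eIF3f2 and eIF3g2 had between 1.54 and 6.85 CPM in bodies and 0 counts in both ovary libraries.

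Of the start-site factors, eIF1, which guards against starting at a wrong codon, had 2055 CPM in the pyrosequenced ovary, 5415 CPM in the Solexa ovary, 629 CPM in the iso1a body, 201 CPM in Rev and 195 CPM in IR6. eIF1A, its partner on the small subunit, had 173, 656, 505, 883 and 708 CPM. eIF2A, an alternative initiation factor, had 109 CPM in the pyrosequenced ovary, 6.04 CPM in the Solexa ovary, 151 CPM in the iso1a body, 492 CPM in Rev and 508 CPM in IR6. The lowest body value of eIF1 was thus in IR6 and its highest level anywhere in the Solexa ovary, while eIF2A had its lowest level there. eIF5, which triggers GTP hydrolysis on eIF2, had 27.3 CPM in the pyrosequenced ovary (3 counts), 319.5 CPM in the Solexa ovary, 341 CPM in the iso1a body, 105 CPM in Rev and 82.4 CPM in IR6. eIF6, which keeps free large subunits from joining, had 0 counts in the pyrosequenced ovary, 49.8 CPM in the Solexa ovary, 24.7 CPM in the iso1a body, 11.1 CPM in Rev and 53.7 CPM in IR6.

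The elongation factors with the most counts were eEF1alpha1 (CG8280), which delivers aminoacyl-tRNA, eEF2 (CG2238), which moves the ribosome on, and eEF5 (CG3186), the hypusine-bearing factor also known as eIF5A. eEF1alpha1 had 14875 CPM in the pyrosequenced ovary, 9998 CPM in the Solexa ovary, 1396 CPM in the iso1a body, 4400.0 CPM in Rev and 3952 CPM in IR6. eEF5 had 10175, 12362, 851, 2279 and 2285 CPM in that order. For both genes the ovary libraries were highest and the iso1a body lowest. How many of all genes have this order was not counted, and tissue and assay differ together. eEF2 had a different order, with 3009.6 CPM in the pyrosequenced ovary, 1546 CPM in the Solexa ovary, 392 CPM in the iso1a body, 4286 CPM in Rev and 4250.2 CPM in IR6.

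The genes of the eEF1 exchange complex, which reloads eEF1alpha with GTP, did not move as a unit between libraries. eEF1beta, an exchange subunit, had 3692 CPM in the pyrosequenced ovary, 4431 CPM in the Solexa ovary, 139 CPM in the iso1a body, 591 CPM in Rev and 550.3 CPM in IR6. eEF1delta, a further exchange subunit, had 136 CPM in the pyrosequenced ovary, 2480.2 CPM in the Solexa ovary, 301 CPM in the iso1a body, 406 CPM in Rev and 271 CPM in IR6. eEF1gamma, the structural subunit, had 45.5 CPM in the pyrosequenced ovary and 1.07 CPM in the Solexa ovary on 5 and 3 counts, but 261 CPM in the iso1a body, 355 CPM in Rev and 353 CPM in IR6. In the Solexa ovary eEF1gamma thus stood at the floor while eEF1beta had 12467 counts. eEFSec, the selenocysteine factor, was low throughout, at 0 in the pyrosequenced ovary and 6.39 to 13.2 CPM elsewhere.

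pAbp had 546 CPM in the pyrosequenced ovary, 213 CPM in the Solexa ovary, 4366 CPM in the iso1a body, 1951 CPM in Rev and 2933 CPM in IR6. The iso1a body was highest and the Solexa ovary lowest.

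**Figure D2:**
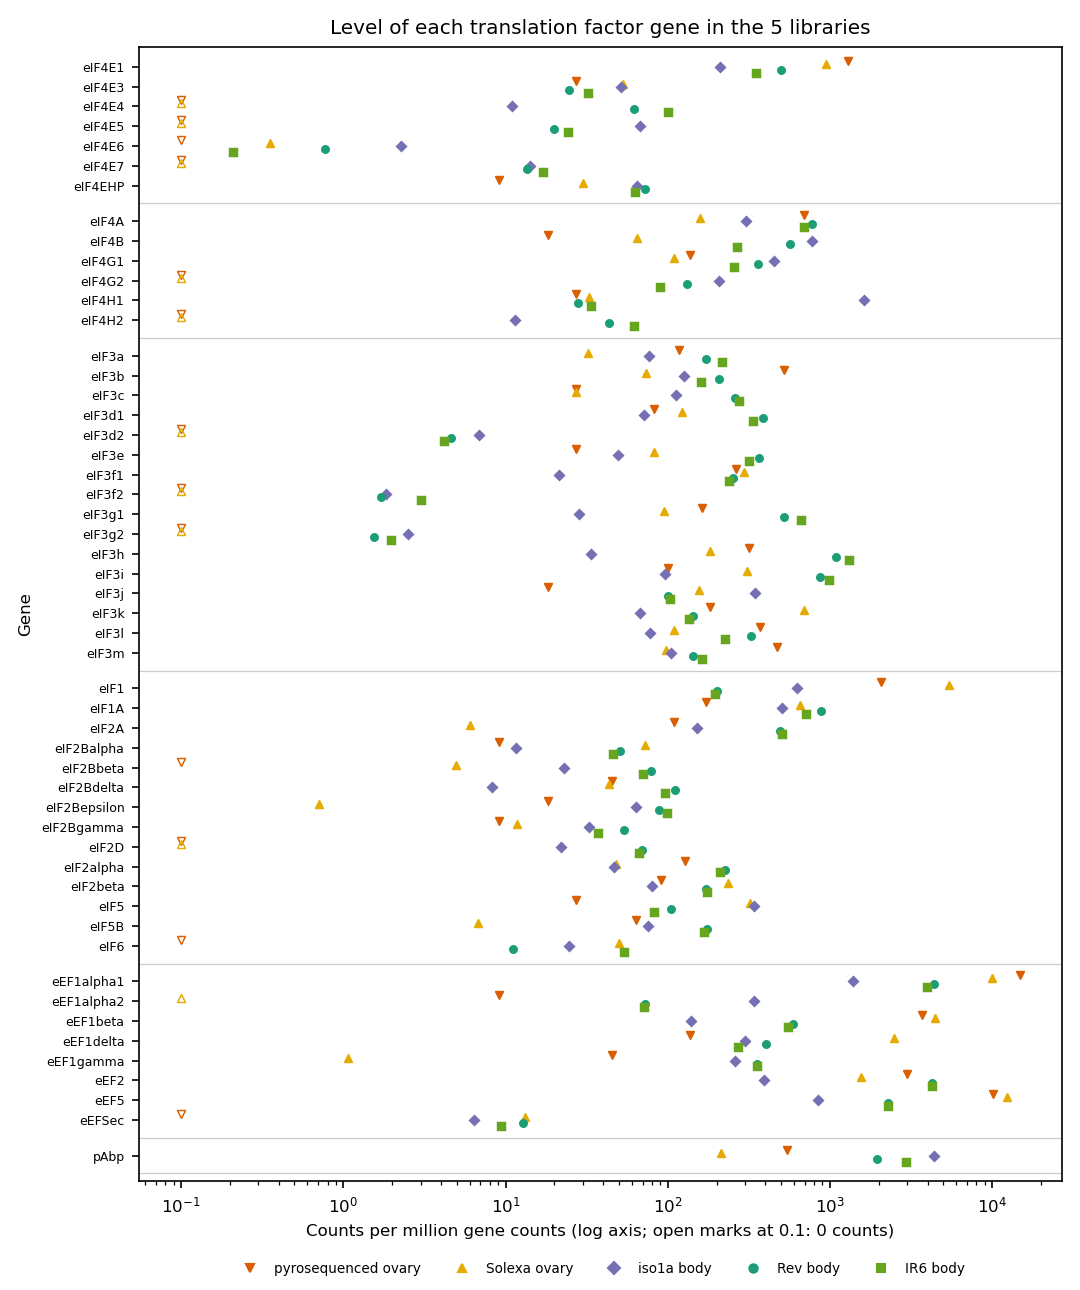
Level of each of the 52 genes (CPM, log axis; genes grouped by role from cap binding at the top to pAbp at the bottom) in the 5 libraries, 1 mark per library. Open marks at 0.1 stand for 0 counts, and these fall on ovary libraries only, mostly at the duplicate genes eIF4E4 to eIF4E7, eIF4G2, eIF4H2, eIF3d2, eIF3f2 and eIF3g2.

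Most duplicates had no counts in the ovary libraries. Of 11 duplicate genes, 9 were at 0 in the pyrosequenced ovary and 9 in the Solexa ovary, and eIF4E3 had counts in both. Among all listed genes 61.7% and 56.2% were at 0 in these libraries, and among the 52 factors 25.0% and 19.2%. The pyrosequenced floor of 27.3 CPM lies above the body levels of eIF3d2, eIF3f2, eIF3g2, eIF4E6 and eIF4E7. A 0 in that library therefore does not show that these genes are silent in the ovary. In the iso1a body 9 of the 11 held a larger part of the counts of their pair than in Rev and IR6, and eIF4H2 and eIF4E4 a smaller one, at 4.93% for eIF4E4 against 11.1% in Rev and 22.2% in IR6. This count has no threshold and no share over all genes beside it, and eIF4E3 to eIF4E7 share the partner eIF4E1. eIF4E6 rests on 10, 9 and 2 counts. The interval of eIF4E7 in the iso1a body (4.84 to 7.97%) overlaps that in IR6 (3.93 to 5.34%). Abundant genes were more often lower in the iso1a body over all genes, and the part of this in the shares was not tested. eEF1alpha2 held 19.7% of the counts of the eEF1alpha pair in the iso1a body (interval 18.8 to 20.6%), against 1.62% in Rev (1.52 to 1.73%) and 1.78% in IR6 (1.65 to 1.91%). eIF3g2 held 8.15% of its pair in the iso1a body (4.14 to 14.1%), against 0.293% in Rev (0.174 to 0.463%) and 0.297% in IR6 (0.179 to 0.463%). The share of eIF3d2 was 8.72% in the iso1a body, against 1.18% in Rev and 1.22% in IR6, and that of eIF3f2 was 7.92%, against 0.668% and 1.24%. The share of eIF4G2 differed little, at 31.4% in the iso1a body (29.7 to 33.2%), 27.0% in Rev (25.8 to 28.1%) and 25.7% in IR6 (24.2 to 27.2%). The larger shares of the eIF3 duplicates came with lower counts of the main genes: eIF3d2 had 6.85 CPM in the iso1a body, 4.62 CPM in Rev and 4.15 CPM in IR6, while eIF3d1 had 71.7, 387 and 335 CPM. The 9 testis markers summed to 1779 CPM in the iso1a body, against 615 CPM in Rev and 725 CPM in IR6, and none was at 0 in a body. Of the 7 measured, 6 were at least 2-fold higher in the iso1a body and betaTub85D was lower, with 70.8 CPM in the iso1a body, against 327 CPM in Rev and 396 CPM in IR6. Their part in these shares was not tested.

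The comparison of Rev with IR6 sets against each other the whole-body libraries that share every label except the line. Between them the translation factors differed little: eIF4B was higher and eIF6 was lower in Rev. A ratio was taken where both libraries together had at least 50 counts, and called at 2-fold. Of 49 genes measured, 1 was higher, against 4.34% of 10300 genes, and 1 was lower, against 3.47% of all genes. The median log2 ratio was 0.07 over the factors and 0.10 over all genes.

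eIF4B, with 6601 counts in Rev and 2584 in IR6, gave a log2 ratio of 1.07 (interval 1.01 to 1.14). That call ended under other scalings of the libraries, where the ratio was 0.99 (TMM) and 0.91 (median ratio). eIF6, with 130 counts in Rev and 517 in IR6, gave −2.27 (−2.56 to −1.99), and it overlaps the gene ytr. The main elongation factors were nearly level, with log2 ratios of 0.15 for eEF1alpha1, 0.01 for eEF2 and 0.00 for eEF5. Their sign was not stable: eEF2 had −0.08 under TMM scaling, −0.15 under median-ratio scaling and −0.01 with sums over transcripts, and eEF1alpha1 had −0.01 under median-ratio scaling. pAbp had a log2 ratio of −0.59, and the largest of the cap-binding family were −0.68 for eIF4E4 and 0.50 for eIF4E1. Under median-ratio scaling 2.90% of all genes were higher and 4.82% lower.

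The comparison of the iso1a body with Rev and IR6 involves the line and the label normalization at once, which cannot be told apart. In the iso1a body eEF2, eEF1alpha1, eEF5, eIF4A and most of the eIF3 and eIF2 genes were lower than in both other bodies. eIF4H1, eEF1alpha2, eIF3j, eIF5, eIF1 and eIF4E5 were higher. Of 49 genes measured, 24 (49.0%) were lower by at least 2-fold against both bodies, where 19.3% of 10316 genes were, and 6 (12.2%) were higher, where 35.2% of all genes were. The median of the smaller log2 ratio was −0.998 over the factors and 0.28 over all genes. Under TMM scaling 28 factors were lower and 5 higher, with 28.5% of all genes lower and 24.8% higher.

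By role, 9 of 14 eIF3 genes and 8 of 14 genes of the eIF2, eIF2B and start-site group were lower in the iso1a body. So were 4 of 8 elongation factors, 2 of 6 scaffold and helicase genes and 1 of 6 cap-binding genes. The largest difference was in eIF3h, with 148 counts in the iso1a body against 12813 in Rev and 12609 in IR6, and log2 ratios of −5.02 (−5.26 to −4.79) and −5.27 (−5.52 to −5.04). It ranked 58th from the lowest of 10316 genes and overlaps the gene senju. eIF3g1, a subunit that binds RNA, had log2 ratios of −4.20 and −4.54, and eIF3f1 had −3.58 and −3.49. eIF2Bdelta, a subunit of the exchange factor for eIF2, had −3.73 and −3.53, on 36 counts in the iso1a body against 1288 in Rev and 926 in IR6, and overlaps Mtmr6. eEF2 had 1715 counts in the iso1a body against 50082 in Rev and 40943 in IR6, with log2 ratios of −3.45 (−3.52 to −3.38) and −3.44 (−3.51 to −3.37).

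Not every abundant factor followed eEF2. eEF1alpha1 had log2 ratios of −1.66 (−1.69 to −1.62) against Rev and −1.50 (−1.54 to −1.46) against IR6, and eEF5 had −1.42 against Rev and −1.43 against IR6. pAbp had 1.16 against Rev and 0.57 against IR6, which did not pass 2-fold against both. eIF6 was 1.15 against Rev and −1.12 against IR6, so that the iso1a body lay between the other bodies. Within the eEF1 complex, eEF1beta had −2.09 and −1.98, whereas eEF1gamma had −0.45 and −0.44.

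Among the 6 higher genes eIF4H1 had log2 ratios of 5.87 (5.71 to 6.04) against Rev and 5.60 (5.44 to 5.77) against IR6, the 90th highest of 10316 genes. eEF1alpha2 followed with 2.24 (2.12 to 2.36) and 2.26 (2.13 to 2.39), on 1499 counts in the iso1a body against 848 in Rev and 689 in IR6. Both are genes whose partner in the pair was lower. eIF3j had 1.78 and 1.73, eIF5 had 1.69 and 2.05, eIF1 had 1.64 and 1.69, and eIF4E5 had 1.76 and 1.47. The call of eIF4E5 ended under TMM scaling, where its smaller log2 ratio was 0.86.

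Level in another library moved with this difference. Of the 10 factors with the most counts in IR6, 8 were lower by at least 2-fold in the iso1a body than in Rev, and of the other 39 factors 18 (46.2%) were. Over all genes the shares were 47.7% among the 1327 genes with the most counts in IR6 and 19.7% among the other 9215. Rev and IR6 were nearly level for most factors (median log2 ratio 0.07). Ranking by IR6 is thus close to ranking by Rev, the reference of the ratio. Genes high in that reference tend to come out lower in the iso1a body by construction, so no conclusion is drawn from these shares. Ovary markers summed to 1468 CPM in the iso1a body, against 18549 CPM in Rev and 17886 CPM in IR6. Of these 10 markers 6 were at least 2-fold lower, among them the eggshell gene Cp38, which made up most of the sum in Rev and IR6, and 2 were higher, osk (898 CPM in the iso1a body, against 396 CPM in Rev and 220.2 CPM in IR6) and bcd (142 CPM, against 54.8 and 49.4 CPM). The 3 yolk protein genes summed to 655 CPM in the iso1a body, against 62180 CPM in Rev and 61974 CPM in IR6. The part of level and of these markers in the result was not tested.

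**Figure D3:**
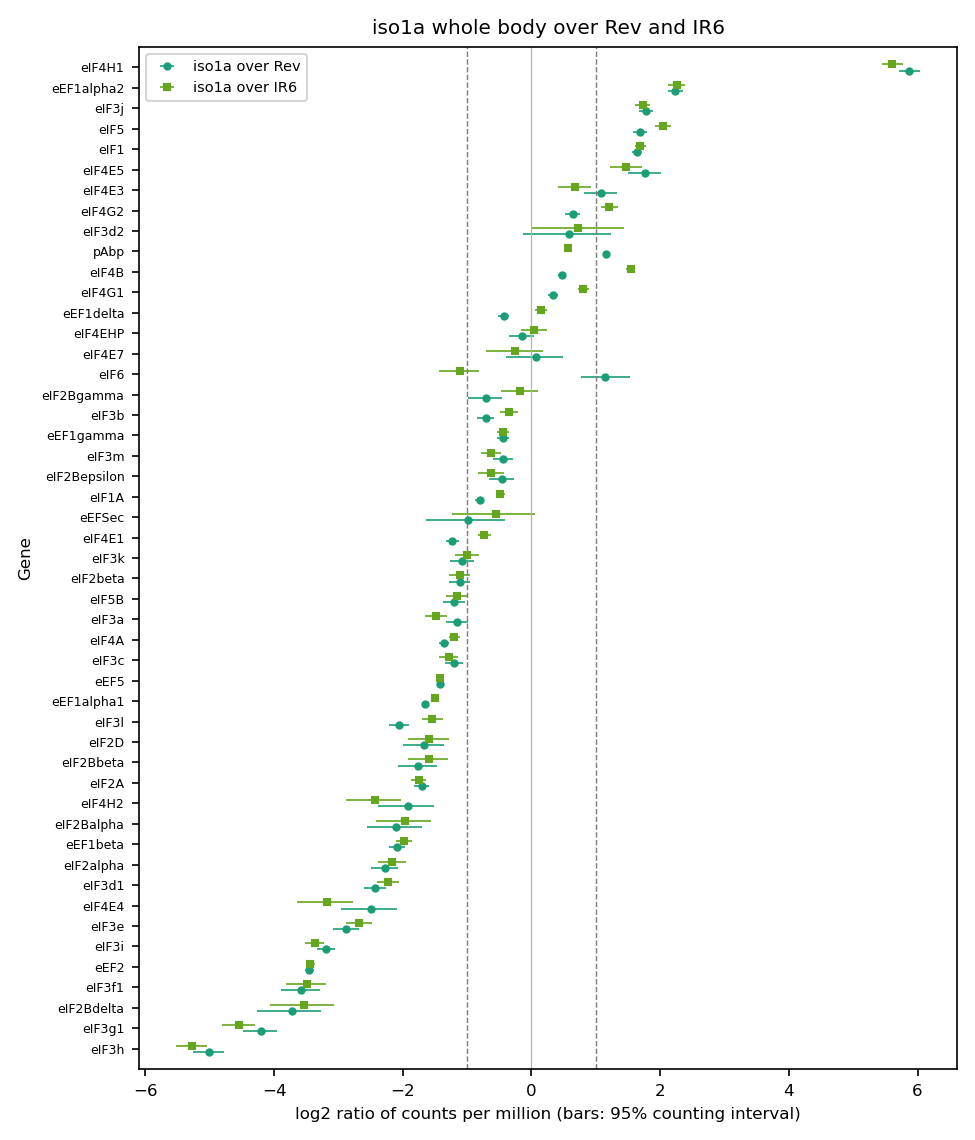
Log2 ratio of CPM in the iso1a whole body over Rev (circles) and over IR6 (squares) for the 49 measured genes, ordered by ratio, with bars for the 95% counting interval and dashed lines at 2-fold. eIF4H1 stands alone at the top at 5.87 and 5.60, and eIF3h is at the bottom at −5.02 and −5.27.

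Both ovary libraries come from the same line and tissue, and differ in platform and in the label normalization at once. The pyrosequenced library had more eIF3b, eIF3m, eIF4A and pAbp, and less eEF1delta, eIF5 and eIF1. Of 34 genes measured, 7 (20.6%) were higher in the pyrosequenced library, against 14.9% of 3366 genes. With sums over transcripts 11 were higher, and with no minimum count 13. A further 13 (38.2%) were lower, against 40.5% of all genes. The median log2 ratio was −0.20 over the factors and −0.67 over all genes.

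eIF3b, a scaffold subunit of eIF3, had 57 counts in the pyrosequenced library and 206 in the Solexa library, a log2 ratio of 2.83 (2.37 to 3.25). eIF3m had 2.28 (1.81 to 2.70), eIF4A 2.14 (1.76 to 2.49) and pAbp 1.37 (0.95 to 1.74). The other higher genes were eIF3a (1.92), eIF3l (1.78) and eIF2alpha (1.45). Of the 13 eIF3 genes measured, 4 were thus higher, and as many were lower: eIF3e, eIF3i, eIF3j and eIF3k. eEF1delta had 15 counts in the pyrosequenced library against 6978 in the Solexa library, a log2 ratio of −4.14 (−5.02 to −3.46). eIF1 had 226 counts in the pyrosequenced library against 15235, a log2 ratio of −1.39 (−1.59 to −1.21). eIF6 had 0 counts in the pyrosequenced library against 140, which makes it at least 1.82-fold lower, so its call at 2-fold rests on the pseudocount.

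For the other lower genes the pyrosequenced counts were small and the intervals wide. eIF5 had 3 counts against 899 and a log2 ratio of −3.33 (−5.83 to −1.998), and eIF3j had 2 counts against 437 and −2.77 (−6.14 to −1.23). eIF4B (2 counts) and eIF4EHP (1 count) passed 2-fold with intervals that reach 0.04 and 0.80, so counting error alone does not separate them from no difference. The genes that hold most factor counts were closer: eEF1alpha1 had a log2 ratio of 0.57, eEF5 −0.28, eEF1beta −0.26 and eEF2 0.96, none past 2-fold. The platforms thus lay within 2-fold of each other for the most abundant elongation factors and well beyond it for eEF1delta.

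The Solexa ovary library and the bodies of Rev and IR6 carry the same normalization label but differ in tissue, line, sex and assay together. In the ovary library eIF1, eEF1beta, eEF1delta, eEF5 and eIF3k were higher, and eEF1gamma, eIF2A, pAbp and 6 of the 11 duplicates were lower. Of the other duplicates, eIF3d2, eIF3f2, eIF3g2 and eIF4E6 had too few counts for a ratio, and eIF4E3 had log2 ratios of 1.12 and 0.71. A difference was called here at 4-fold against both bodies. Of 48 genes measured, 5 (10.4%) were higher, where 5.28% of 9113 genes were, and 20 (41.7%) were lower, where 57.9% of all genes were. The median of the smaller log2 ratio was −1.45 over the factors and −2.89 over all genes. TMM scaling shifts every ratio to Rev by 1.04 on the log2 scale, after which 7 factors were higher and 14 lower, with 9.66% of all genes higher and 49.3% lower.

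eIF1 had the largest positive ratio, with 15235 counts in the Solexa ovary against 2349 in Rev and 1874 in IR6, and log2 ratios of 4.75 (4.69 to 4.81) and 4.80 (4.73 to 4.87). It was the 70th highest of 9113 genes. eEF1beta had 2.91 and 3.01, eEF1delta 2.61 and 3.19, eEF5 2.44 and 2.44, and eIF3k, which overlaps Tbp, 2.28 and 2.36. Of the 8 elongation factors measured, 3 were thus higher and 2, eEF1alpha2 and eEF1gamma, lower. The 5 higher genes have short transcripts in the reference, from 681 bp (eIF1) to 960 bp (eEF1beta). The 20 lower genes run from 1020 bp (eIF4E5) to 7297 bp (eIF4G2). Random-primed counts grow with transcript length and CAGE counts do not. The part of length in these ratios was not tested. eEF1alpha1, at 1.18 and 1.34, and eIF4E1, at 0.94 and 1.44, were higher by less than 4-fold. eEF2 was lower, at −1.47 and −1.46, without passing 4-fold.

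For lower genes with no ovary count only a bound can be given, with the floor of 3 counts in place of 0. Relative to Rev, eIF4G2 was at least 124-fold lower in the Solexa ovary, eEF1alpha2 at least 68.1-fold, eIF2D at least 65.5-fold and eIF4E4 at least 58.4-fold. Relative to IR6 the same genes were at least 83.6-fold, 67.1-fold, 62.2-fold and 93.9-fold lower. In the reference annotation eIF4G2 overlaps CG33111 and CG34355, and eIF2D overlaps Pglym78. The unstranded body counts of eIF4G2 and eIF2D, also in iso1a, may therefore include reads of those genes. eIF4H2, eIF4E5 and eIF4E7 were at least 41.0-fold, 18.6-fold and 12.8-fold lower than in Rev. All of these except eIF2D, which can deliver tRNA to the ribosome outside the usual route, are duplicates of another factor.

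Some factors with no known duplicate also had few ovary counts. eEF1gamma had 3 counts in the Solexa ovary against 4154 in Rev and 3405 in IR6, with log2 ratios of −8.16 (−10.66 to −6.83) and −8.15 (−10.65 to −6.82). eIF2Bepsilon, the catalytic subunit of eIF2B, had 2 counts against 1031 and 954, and log2 ratios of −6.63 (−10.00 to −5.10) and −6.80 (−10.17 to −5.27). eIF2A had −6.30 and −6.35, and eIF5B, which joins the ribosomal subunits, had −4.65 and −4.60. Since eIF2Bepsilon overlaps mip130 and eIF2A overlaps CG32448, their body counts may include reads of those genes. In the pyrosequenced ovary eEF1gamma had 5 counts and eIF2Bepsilon 2. eIF2A, by contrast, had 12 counts or 109 CPM there against 6.04 CPM in the Solexa ovary, and eIF5B had 7 counts or 63.6 CPM against 6.75 CPM, so for these genes the ovary libraries did not give like levels. Counts of 5′ ends depend on where a library places the start, which was not tested. pAbp had −3.20 (−3.32 to −3.08) against Rev and −3.79 (−3.91 to −3.67) against IR6. Under TMM and median-ratio scaling the calls of eIF4B, eIF3g1, eIF4A, eIF3h, eIF3a and eIF2alpha ended.

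**Figure D4:**
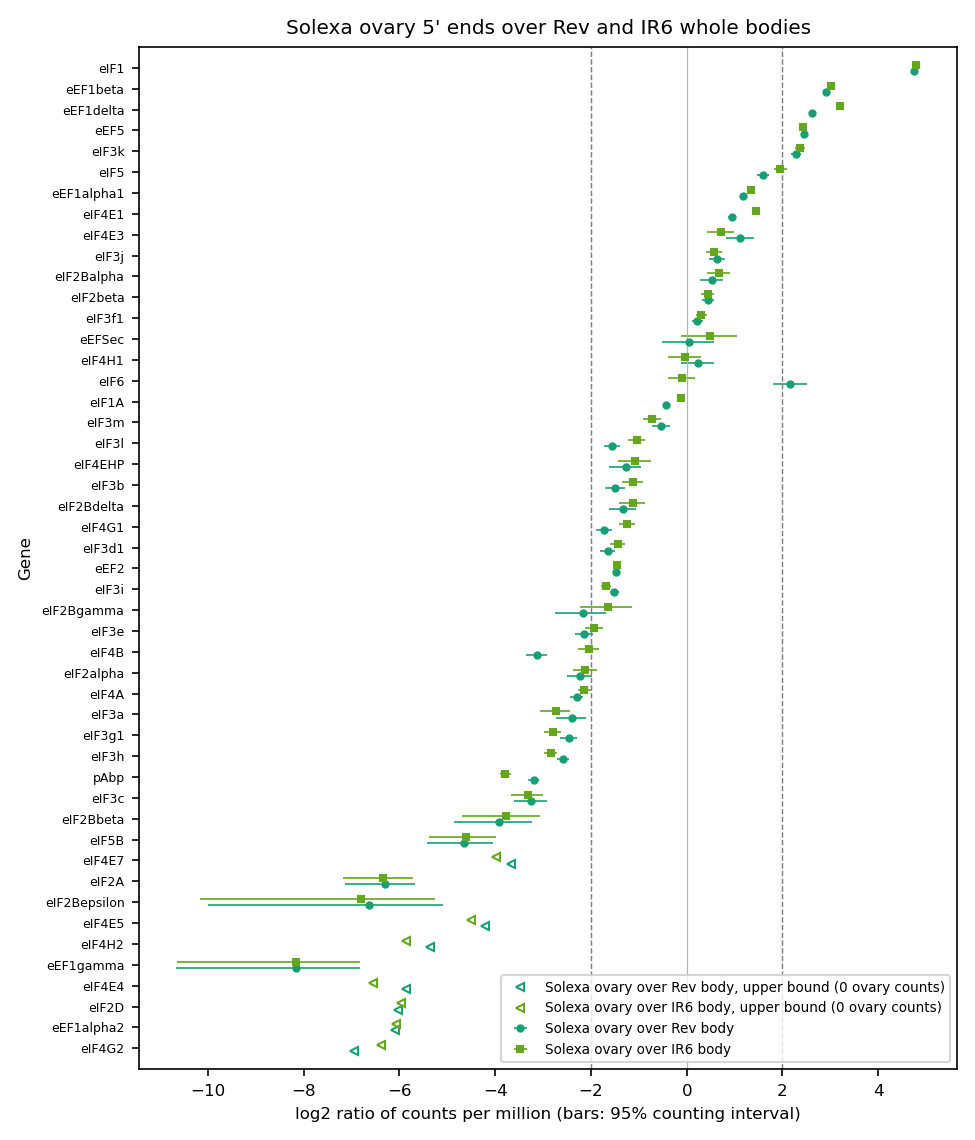
Log2 ratio of CPM in the Solexa ovary library over Rev (circles) and over IR6 (squares) for the 48 measured genes, ordered by ratio, with bars for the 95% counting interval, dashed lines at 4-fold and open triangles for upper bounds where the ovary count was 0. eIF1 is at the top at 4.75 and 4.80, and eEF1gamma, at −8.16 and −8.15, lies among the genes with no ovary count.

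The ovary and body libraries of iso1a share the line but differ in tissue, sex and assay, and the Solexa ovary and the body also in the label normalization. In both ovary libraries eEF1beta, eIF3f1, eEF5, eEF1alpha1, eIF3h and eIF4E1 were at least 4-fold higher than in the iso1a body. Of 45 genes measured, these 6 (13.3%) were higher, where 1.90% of 8582 genes were, and 9 (20.0%) were lower, where 44.0% of all genes were. The median of the smaller log2 ratio was 0.00 over the factors and −1.73 over all genes. The iso1a body is also the library set against Rev and IR6 above, and all 6 higher genes but eIF4E1 were called lower there.

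eEF1beta had log2 ratios of 4.73 (4.55 to 4.91) in the pyrosequenced ovary and 4.99 (4.88 to 5.11) in the Solexa ovary. eEF5 had 3.58 and 3.86, eEF1alpha1 3.41 and 2.84, eIF3f1 3.65 and 3.80, eIF3h 3.25 and 2.43, and eIF4E1 2.62 and 2.17. Of the 7 elongation factors measured, 3 were thus higher and 2, eEF1alpha2 and eEF1gamma, lower. Transcript length enters the body counts here too, and its part was not tested. Among lower genes eIF4H1 had −5.68 (−8.18 to −4.35) in the pyrosequenced ovary and −5.63 (−5.95 to −5.34) in the Solexa ovary. eIF4B had −5.10 (−8.47 to −3.57) and −3.59 (−3.82 to −3.38), pAbp had −2.99 (−3.39 to −2.64) and −4.36 (−4.48 to −4.24), and eEF1gamma had −2.38 (−4.15 to −1.29) and −7.71 (−10.21 to −6.38).

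eIF4G2, at 0 in both ovary libraries, was at least 7.57-fold lower in the pyrosequenced ovary and at least 194-fold lower in the Solexa ovary, and eIF4E5 at least 2.46-fold and 63.0-fold lower, so its call at 4-fold also rests on the pseudocount in the pyrosequenced ovary. eEF1alpha2 had 1 count in the pyrosequenced ovary, a log2 ratio of −4.65 (−10.54 to −2.75), and was at least 321-fold lower in the Solexa ovary. The last of the 9 lower genes, eIF2D and eIF2Bbeta, were at 0 in the pyrosequenced library, whose floor lies above their iso1a body level, and their calls ended with a pseudocount of 1. The counts also depend on which ovary library is used: the Solexa ovary alone gave 11 higher and 16 lower genes, and the pyrosequenced ovary alone 11 higher and 13 lower. No share of all genes is given beside these counts, so they do not set the factors against other genes. Under TMM scaling 11 factors were higher and 5 lower, with 5.71% of all genes higher and 20.2% lower.

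Transcripts of 1 gene gave a further difference between the ovary libraries, over all genes as over the factors, looked for after the data were seen. Of the 52 genes, 21 have several transcripts in the files, 99 in all. The largest count of a gene was at least 10 times its smallest in 6 of 17 such genes (35.3%) in the Solexa ovary, against 39.0% of all genes, so the factors did not stand out from other genes. The corresponding counts were 0 of 7 in the pyrosequenced ovary (10.8% of all genes), 1 of 20 in the iso1a body (8.51%), 0 of 21 in Rev (1.41%) and 0 of 21 in IR6 (1.62%). The 6 genes were eEF1alpha1, eEF2, eIF2Bdelta, eIF4E1, eIF5 and pAbp.

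eEF1alpha1 had 28130 counts on transcript RA and 114 on RB in the Solexa ovary, whereas the pyrosequenced ovary had 1636 and 1628. eEF2 had 4349 counts on RA and 8 on each of RB and RC in the Solexa ovary, whereas the pyrosequenced ovary had 331 on RA and 326 on each of the others. The Solexa counts thus fell on 1 transcript of each gene, while the pyrosequenced counts were nearly equal over them. eIF4E1 had 2504, 2464 and 2677 Solexa counts on RB, RC and RD, which share a start in the reference annotation, and 110, 86, 83 and 44 on RA, RE, RF and RG, whose starts lie elsewhere. In the pyrosequenced ovary those 7 transcripts had 104 to 143 counts each. pAbp had between 39 counts (RC and RE) and 598 counts (RH) in the Solexa ovary, and 60 on each of its 8 transcripts in the pyrosequenced ovary. In the iso1a body the gene concerned was eIF4B, with 3420 counts on RA and 108 on RD. Transcript letters may have been reassigned between annotations, and a read inside several transcripts was counted for each.

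**Figure D5:**
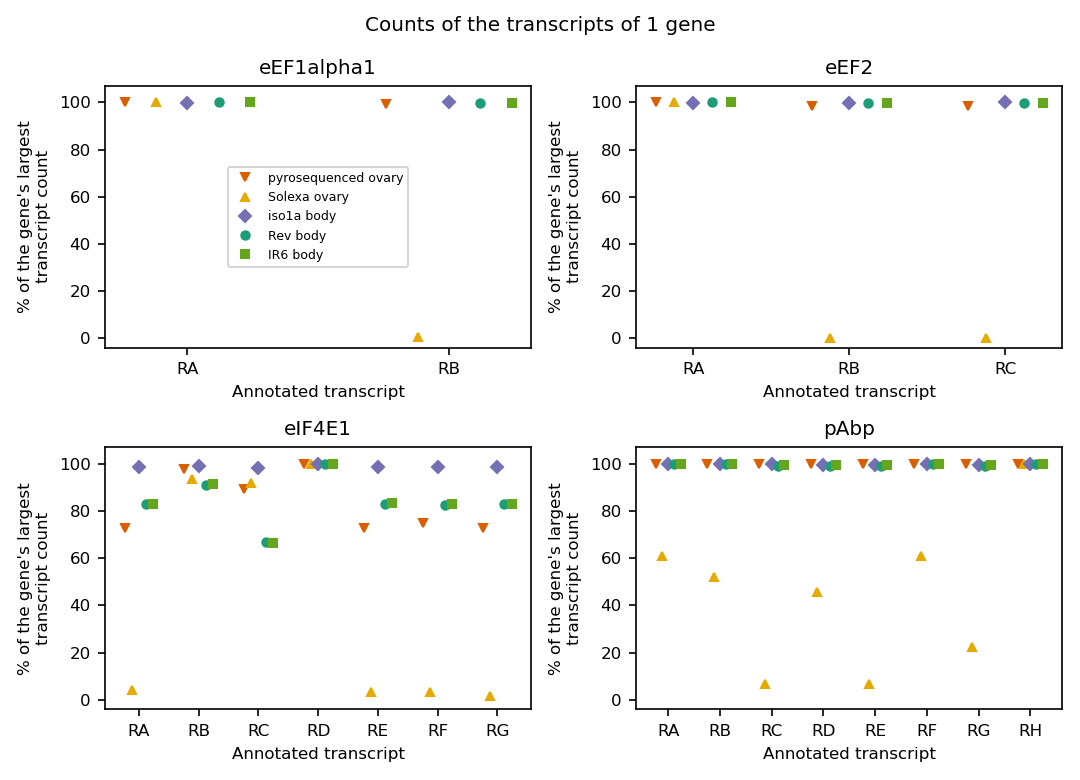
Count of each annotated transcript as a percentage of the largest transcript count of its gene (vertical axis) for eEF1alpha1, eEF2, eIF4E1 and pAbp in the 5 libraries, 1 mark per library. Solexa ovary marks drop near 0 for RB of eEF1alpha1 and for RB and RC of eEF2, while the pyrosequenced ovary marks for these transcripts stay close to 100.

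Other genes of translation were counted by the same rules. In the iso1a body 63 of 87 ribosomal protein genes were at least 2-fold lower than in Rev and IR6 and 6 were higher. Their median log2 ratio was −2.27. Among all genes 19.3% were lower and 35.2% higher in this comparison. RpL23 had 101 CPM in the iso1a body, against 4161 CPM in Rev and 7793 CPM in IR6. Of 20 cytosolic aminoacyl-tRNA synthetase genes 9 were lower and 1 higher, of 16 regulators of initiation 4 lower and 5 higher, of 5 release and recycling genes 1 lower and 2 higher, and of 8 mitochondrial translation factors 2 lower and 1 higher. The release factor gene eRF3 was among the higher genes, with 706 CPM in the iso1a body, 90.4 CPM in Rev and 76.1 CPM in IR6. So was larp, which encodes a regulator of ribosomal protein messages, with 1704 CPM in the iso1a body, 126 CPM in Rev and 94.3 CPM in IR6.

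Between Rev and IR6 these lists had 1 higher of 17 regulators, 1 higher of 8 mitochondrial factors and 1 lower of 84 ribosomal protein genes. In either direction 0 of 20 synthetases and 0 of 5 release genes were called. The shares of all genes were 4.34% higher and 3.47% lower. In the pyrosequenced ovary 38 of 79 ribosomal protein genes were higher and 9 lower than in the Solexa ovary. There 4 of 9 regulators and 3 of 4 mitochondrial factors were lower, 2 of 8 synthetases were higher, and 1 of 3 release genes fell on each side. Of all genes 14.9% were higher and 40.5% lower, so the regulators lay near the share of all genes. In the Solexa ovary against Rev and IR6, at 4-fold, 14 of 83 ribosomal protein genes were higher and 31 lower, and 13 of 20 synthetases, 9 of 16 regulators, 3 of 5 release genes and 2 of 7 mitochondrial factors were lower. In that comparison 1 regulator and 1 mitochondrial factor were higher. All genes together gave 57.9% lower and 5.28% higher there. The lower synthetases, regulators and release genes thus lay near the share of all genes. In both ovary libraries against the iso1a body, at 4-fold, 34 of 85 ribosomal protein genes were higher and 3 lower. Of the other lists 3 of 4 release genes, 5 of 15 regulators, 3 of 20 synthetases and 0 of 7 mitochondrial factors were lower. Only 1 synthetase was higher. For all genes the shares were 44.0% lower and 1.90% higher. Most ribosomal protein genes, and 4 of the 8 elongation factors, were thus lower in the iso1a body than in the other bodies.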

How the data were processed

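There were 5 libraries of polyadenylated RNA, each the only one of its group. The authors deposited read counts per annotated transcript; reads were aligned with Bowtie, per the submitters' processing notes. The Bowtie version, genome build, counting rule and meaning of the label normalization are not given in the sources used here. Deposited tables of transposable element copies were not used.

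Symbols came from a newer annotation (12473 genes by locus tag, 548 by synonym, 244 without symbol), which also gave overlaps and transcript lengths (49 of the 52 genes by the same transcript letter, the rest from the longest transcript). The value of a gene was its largest transcript count, and an unlisted transcript was 0. A row without a gene name held 0 to 681 counts per library (at most 0.0155%) and was left out. Ratios were log2 of counts plus 0.5 over the library total, with exact 95% Clopper-Pearson intervals conditional on the sum of both counts. They required 50 counts in each pair of libraries and were computed over all genes. Where a library was set against a pair of others, a call needed the same direction and enough fold in each, and the size is that of the lesser ratio (0 where directions differ).

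Alternatives were TMM factors (edgeR 4.0.16), median-ratio factors (DESeq2 1.42.0, R 4.3.3), sums over transcripts, a minimum of 10 or none, a pseudocount of 1, omission of overlapping genes and totals without ribosomal protein genes. Comparisons against 1 library alone were added after the data were seen. Other steps used Python 3.11.15, and the calculations were checked on simulated data. Genes, lists and tests were chosen with earlier results of these data known. Values were named for pAbp, the eIF4E family, the 3 genes with the most counts per role, and each called gene (the 5 largest where more than 10 were called). Genes beyond that rule, including the transcript results, duplicates and subunits, were named after their values were seen.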

Additional observations from a re-analysis of the deposited data

Results flagged for a closer look

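The label normalization is "yes" for the pyrosequenced library in the ovary and for the iso1a library in whole bodies. Of 11 translation factors that passed 2-fold both in the pyrosequenced over the Solexa ovary and in the iso1a body over Rev and IR6, 7 (63.6%) had opposite directions and 4 the same. Over all genes 616 of 991 (62.2%) had opposite directions, so the factors did not stand out. The difference between ovary and body was not tested for any of them, and the label cannot be told apart from platform in the ovary or from line in the bodies.

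On the side lower in the pyrosequenced ovary and higher in the iso1a body were 3 genes. eIF1 had a log2 ratio of −1.39 between the ovary libraries, and 1.64 over Rev and 1.69 over IR6. eIF3j had −2.77 between the ovary libraries on 2 counts in the pyrosequenced library, and 1.78 and 1.73 in bodies. eIF5 had −3.33 between the ovary libraries on 3 counts in the pyrosequenced library, and 1.69 and 2.05 in bodies.

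On the side higher in the pyrosequenced ovary and lower in the iso1a body were 4 genes. eIF2alpha had a log2 ratio of 1.45 between the ovary libraries, and −2.27 over Rev and −2.16 over IR6. eIF3a had 1.92 in the ovary, and −1.15 and −1.48 in bodies. eIF3l had 1.78 in the ovary, and −2.06 and −1.54 in bodies. eIF4A had 2.14 in the ovary, and −1.36 and −1.20 in bodies.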

How the results depend on the processing

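No gene past the fold threshold changed direction under another scaling, sums over transcripts or a pseudocount of 1, but 19 ratios of genes that did not pass it changed sign. Of these, 13 belonged to Rev over IR6, eEF1alpha1 and eEF2 among them. Of the counts and shares that answer a comparison, 61 of the alternative values stayed within 1.5 times the count or within the counting interval and 31 did not. For Rev over IR6, the 1 gene higher became 0 with TMM factors, 0 with median-ratio factors and 0 without overlapping genes, and 2 with a minimum of 10 counts or no minimum, while the 1 gene lower became 0 without overlapping genes. Leaving out overlapping genes, which removes 24 of the 52, gave 11 lower genes for the iso1a body over Rev and IR6, and 3 lower for the pyrosequenced over the Solexa ovary. It gave 3 higher and 11 lower for the Solexa ovary over the bodies, and 3 higher and 4 lower for the ovaries over the iso1a body. For the pyrosequenced over the Solexa ovary, sums over transcripts gave 11 higher genes (14.9% of all genes) and no minimum gave 13. For the ovaries over the iso1a body, TMM factors gave 11 higher and 5 lower genes (5.71% and 20.2% of all genes). Median-ratio factors gave 10 higher and 5 lower (4.10% and 24.7% of all genes). In that comparison the pyrosequenced ovary alone gave 11 higher, and the Solexa ovary alone 11 higher and 16 lower. Counts given here without a share of all genes show only how the number of calls moved with the setting. With sums over transcripts the share of all translation factors was 5.33% in the pyrosequenced ovary, 4.64% in the Solexa ovary, 2.88% in the iso1a body, 3.27% in Rev and 3.54% in IR6. With totals that leave out ribosomal protein genes it was 5.70%, 5.44%, 1.53%, 2.69% and 2.73% in the same order. Apart from the effects of construction (fewer genes, fewer libraries), the cause was not tested. No paired analysis was possible because each group holds 1 library.

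The depth of the pyrosequenced library limits its results: 25 of the 52 genes stood at or under 3 counts there. Each group had 1 library, so variation between libraries of a group is unknown, and intervals cover counting error only.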
